A study of Mus musculus domesticus and Mus musculus molossinus with 8 samples.

Results

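The T cell development genes of the thymus are a set of 42 genes, listed by symbol in 11 roles that run from antigen receptor recombination to the exit of mature cells from the thymus. All 42 were found in both deposited tables, out of 23284 genes in all. The list was put together by what the genes do, not by a measured value, but with earlier results of these data known. Levels are given as FPKM (fragments scaled by transcript length and by the mapped fragments of the library), which is per length, so levels of different genes can be set side by side.

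Polyadenylated RNA was sequenced from thymus and liver of 4 mice aged 8 weeks, and both organs came from the same mouse. One strain was C57BL/6 (B6), the common laboratory strain and the source of the reference genome, and the other was MSM/Ms (MSM), an inbred strain derived from Japanese wild mice. In each strain 1 mouse was untreated and 1 received 1.5 µg of MegaFasL, a multimeric form of the ligand of Fas, a receptor that triggers apoptosis, by the intraperitoneal route. The design therefore holds 4 thymus groups (B6 untreated, MSM untreated, B6 injected, MSM injected) and the matching 4 liver groups, each with 1 library from 1 mouse, so no single group has a replicate. No time between injection and collection was given in the sources used here. The thymus was sequenced as whole tissue. Fewer cells of a type and less RNA per cell cannot be told apart in such libraries.

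Thymocytes mature in steps. Progenitors without CD4 or CD8 commit to the T lineage under Notch signals and the factors Tcf7, Gata3 and Bcl11b, recombine the beta chain of the T cell receptor with Rag1 and Rag2, and test it as part of the pre-T cell receptor, whose partner chain is Ptcra. Cells with both CD4 and CD8, the main population of a young thymus, recombine the alpha chain, are selected on self peptides through the receptor, Lck and Zap70, choose the CD4 or CD8 lineage through Zbtb7b and Runx3, and leave the thymus through S1pr1 under the factor Klf2.

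The labelled tissue was matched by these genes. All 42 members were above 0 in every thymus library, 30 were at 10 FPKM or more and 11 at 100 FPKM or more in all 4 thymi, and only Foxp3 was under 1 FPKM in each of them. The estimated depth was 2.44 to 3.04 fragments per FPKM and kilobase in thymus and 1.35 to 1.62 in liver. The untreated MSM thymus stood apart from the other thymi. In it, 19 hepatocyte markers summed to 4001 FPKM, against 82.7 to 298.9 in the other 3, with Alb at 1773 FPKM, and 15 airway, fat and muscle markers summed to 2369 FPKM, against 140.2 to 204.5. The members made up 1.16%, 0.835%, 1.21% and 1.09% of the FPKM sum in the untreated B6, untreated MSM, injected B6 and injected MSM thymus, and 26 of the 42 had their lowest thymus value in the untreated MSM library. These were 26 of the 41 with a mean of 1 FPKM or more, beside 3485 of all 11610 such genes. The part of the foreign tissue RNA in these lower values was not tested.

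**Figure D1:**
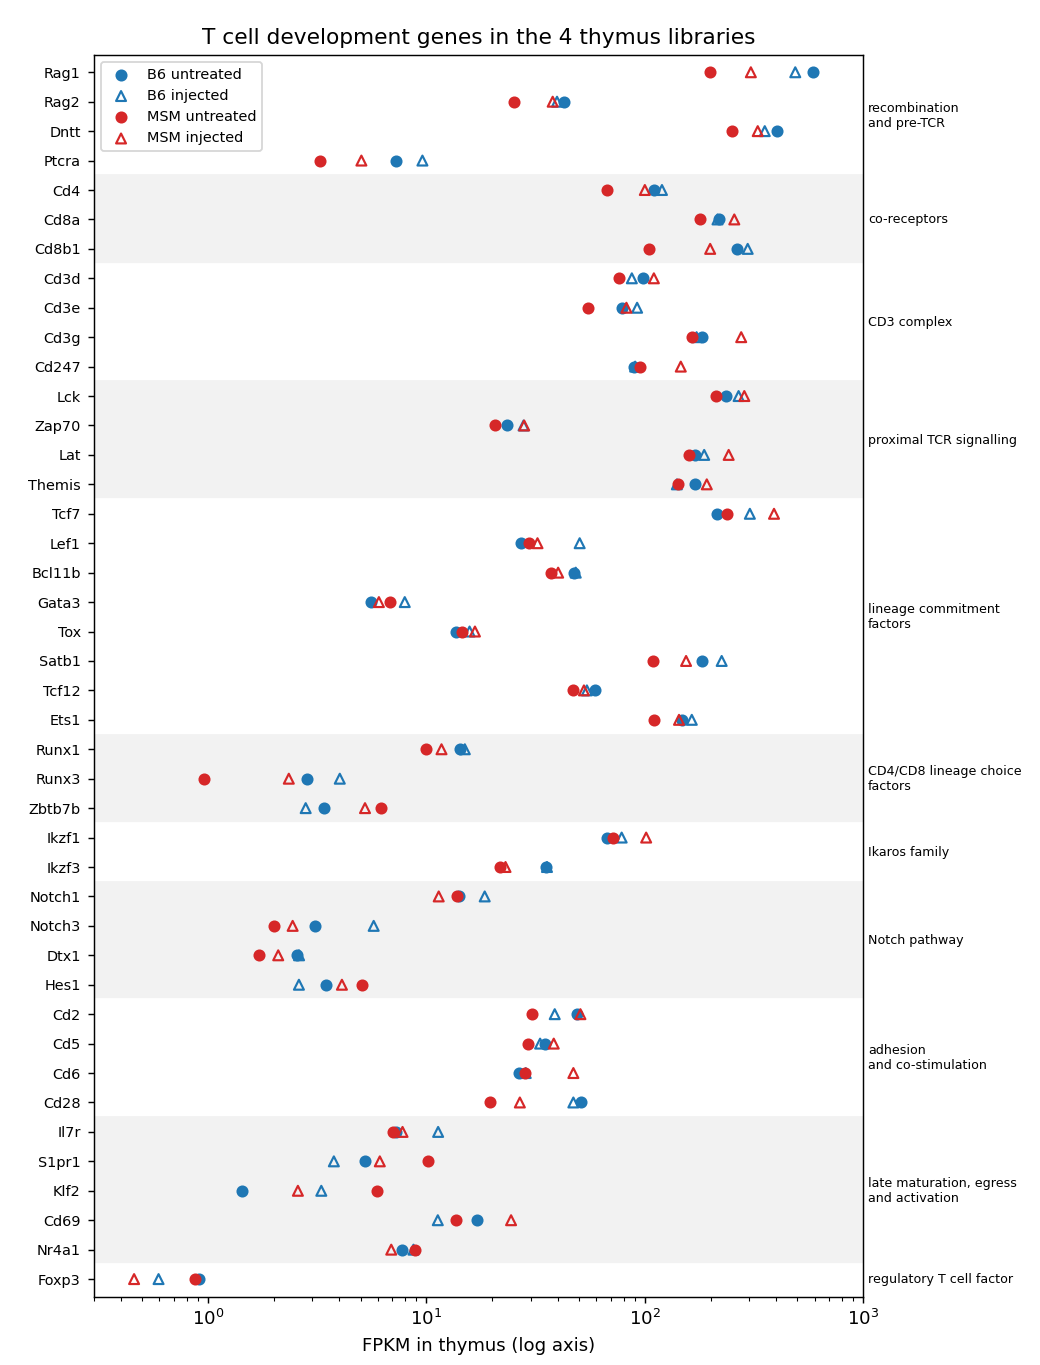
FPKM of the 42 members in the 4 thymus libraries, on a log axis, grouped by role; colour gives the strain, filled circles the untreated and open triangles the injected mice, and each point is 1 library. Rag1 had the highest median and Foxp3 the lowest values; for 31 members the highest library was under 2-fold the lowest.

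For all 4 recombination and pre-T cell receptor genes both MSM thymi lay below both B6 thymi, as was so for 22.3% of all genes with a mean of 1 FPKM or more. Rag1, which with Rag2 forms the enzyme that cuts receptor gene segments, stood at 586.6 FPKM in the untreated B6 thymus, 198.6 in the untreated MSM, 488.7 in the injected B6 and 306.0 in the injected MSM thymus. The MSM values were thus the lower ones in each treatment, and the gap was wider in the untreated pair (2.95-fold) than in the injected pair (1.597-fold). Rag1 lies on chromosome 2 at 101638282 to 101649501 and Rag2 beside it at 101624718 to 101632529 (mm10, GENCODE M21), and both overlap the gene model B230118H07Rik, so a share of their reads could be assigned to it. Rag2 stood at 42.9, 25.1, 39.7 and 37.9 FPKM in the same order of libraries. Its injected pair differed by 1.05-fold only, so its separation of the strains rests mainly on the untreated pair.

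Dntt, the polymerase that adds untemplated bases at receptor joints, had 403.7 FPKM in the untreated B6 and 249.7 in the untreated MSM, 354.3 in the injected B6 and 329.0 in the injected MSM thymus. Ptcra, the pre-receptor chain, had 7.24, 3.28, 9.60 and 5.05 FPKM, and so differed by 2.21-fold in the untreated and 1.90-fold in the injected pair. At this level the estimated depth gave about 10.2 to 37.1 fragments per library for Ptcra, and the 95% Poisson interval of the untreated MSM value, 1.59 to 5.98 FPKM, reached into that of the untreated B6 value, 4.83 to 10.4 FPKM. Such intervals cover counting error only.

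The strain difference in thymus was tested with limma on log2(FPKM + 1), MSM minus B6, with treatment as a term, so that each difference stayed within 1 table. Of 11610 genes whose mean reached 1 FPKM, 44 (0.379%) were higher and 69 (0.594%) lower in MSM at an adjusted p under 0.05. Of the 41 members tested, 0 passed in either direction, and 8 had an unadjusted p under 0.05, beside 1505 of all genes tested. The fit leaves 1 residual degree of freedom, and the spread it measures is how far the strain difference varied between the treatments, not the spread among mice of 1 strain. Rag1 differed by -1.12 ± 0.33 (log2, SE; adjusted p = 0.246), Ptcra by -0.88 ± 0.26 (adjusted p = 0.245), Rag2 by -0.41 ± 0.26 (adjusted p = 0.567) and Dntt by -0.40 ± 0.30 (adjusted p = 0.636). None of these 4 differences passed the threshold.

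Both MSM libraries lay below both B6 libraries for 17 of the 41 members, where 22.3% of all genes tested did so, and above them for 4 members, where 23.1% of all genes did so. In the other 20 members the strains overlapped. Without the untreated MSM thymus, the remaining MSM library was below both B6 libraries for 18 members (background 35.0%) and above both for 18 (background 41.8%). The median strain difference over the 41 members was -0.14, beside 0.03 over all genes tested. It was -0.28 in the untreated and -0.11 in the injected pair. Over all genes tested, the median was 0.003 in the untreated and 0.021 in the injected pair. MSM was the lower strain for 29 members in the untreated pair and for 23 in the injected pair, for 19 of them in both, while 8 were higher in MSM in both pairs and 14 had opposite signs. These signs were not counted over all genes, so the counts have no background beside them. Over the 41 members the differences of the untreated and injected pairs had a Pearson r of 0.47 and a Spearman rho of 0.48, beside 0.33 and 0.31 over all 11610 genes. These are descriptions across genes of the same 4 libraries, and genes are not independent replicates.

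**Figure D2:**
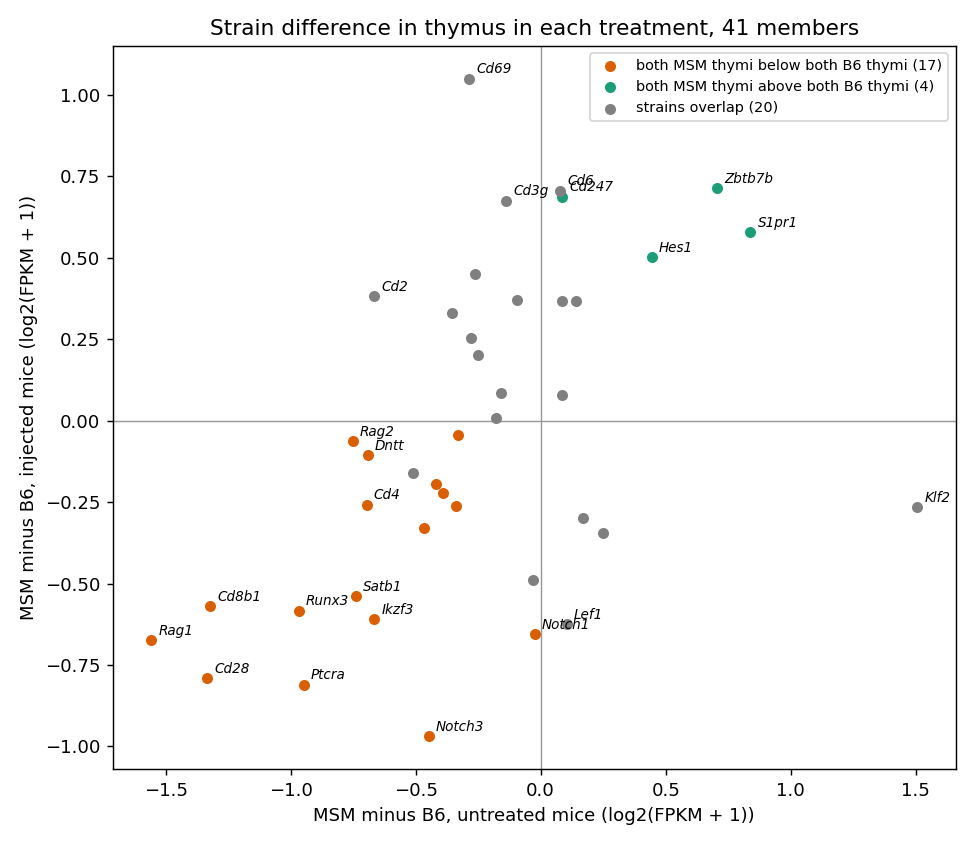
Strain difference (MSM minus B6, log2(FPKM + 1)) of 41 members in the untreated mice (x axis) and the injected mice (y axis), 1 point per gene, coloured by whether the strains overlap over all 4 thymi. The 17 genes with both MSM thymi below both B6 thymi lie to the lower left, with Rag1, Cd28, Cd8b1 and Ptcra farthest out, and Zbtb7b, S1pr1 and Hes1 lie in the upper right.

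Among the co-receptors, the chain Cd8b1 differed most between the strains. Cd8b1, the beta chain of the CD8 heterodimer, stood at 263.3 FPKM in the untreated B6, 104.7 in the untreated MSM, 296.0 in the injected B6 and 199.3 in the injected MSM thymus. Cd8a, the alpha chain, stood at 218.2, 179.9, 215.3 and 257.0 FPKM. So the 2 MSM thymi held the lowest Cd8b1 values, while for Cd8a they held both the lowest and the highest value. Cd4, the co-receptor of cells restricted by class II molecules, had 109.9, 67.5, 119.9 and 100.1 FPKM, with both MSM thymi below both B6 thymi. The fitted differences were -0.95 ± 0.29 for Cd8b1 (limma adjusted p = 0.265), -0.48 ± 0.25 for Cd4 (adjusted p = 0.483) and -0.01 ± 0.28 for Cd8a (adjusted p = 0.993).

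Cd8b1 and Cd8a lie 35.9 kb apart on chromosome 6, on the same strand, and both were at a high level, and their ratio within a library does not depend on how that library was scaled. The Cd8b1 to Cd8a ratio was 1.21 in the untreated B6, 0.582 in the untreated MSM, 1.38 in the injected B6 and 0.775 in the injected MSM thymus. Both MSM ratios were under 1 and both B6 ratios above it. The Rag1 to Rag2 ratio was 13.7, 7.92, 12.3 and 8.07 in the same order, and it too separated the strains in both treatments. With 2 libraries against 2, an exact two-sided permutation test cannot give a p below 0.333, so these ratios carry no test. Reads of both strains were aligned to mm10, built from B6, and loss of MSM reads over divergent sequence cannot be told apart from a lower transcript level in any of these comparisons.

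The other 3 neighbouring pairs among the members showed smaller separations. Cd5 to Cd6, receptors 50.3 kb apart on chromosome 19 that restrain receptor signals, had ratios of 1.31, 1.04, 1.16 and 0.813, lower in MSM in each treatment. Cd3g to Cd3d, 1.4 kb apart on chromosome 9, had ratios of 1.86, 2.17, 1.98 and 2.51, and Cd3d to Cd3e had 1.24, 1.39, 0.946 and 1.34. In these last 2 pairs the MSM ratios were the higher ones.

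**Figure D3:**
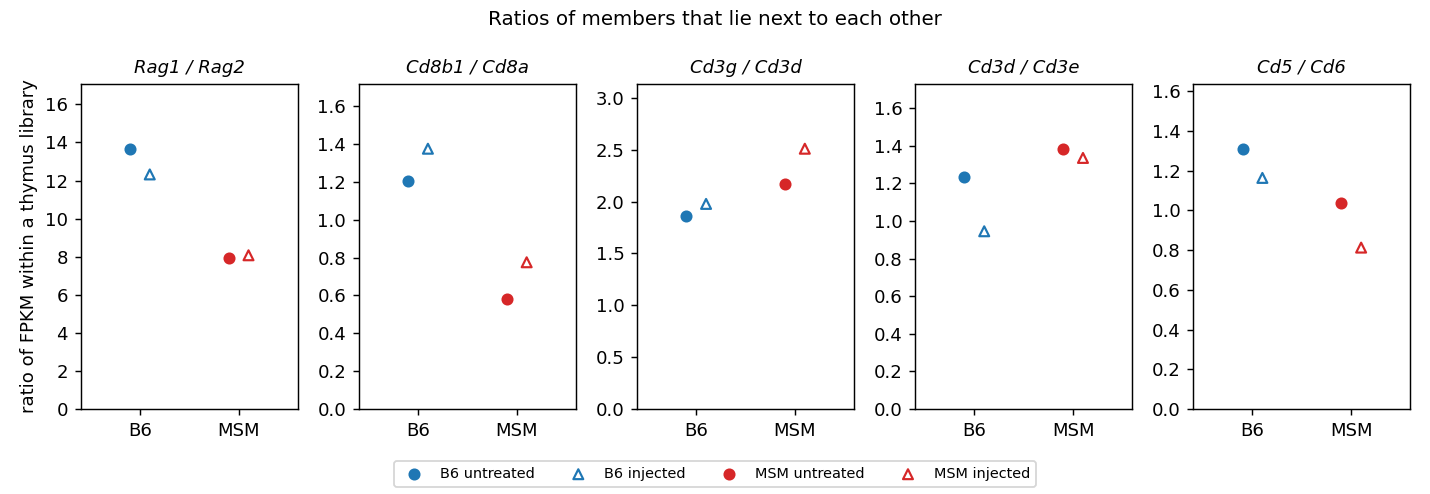
Ratio of the FPKM of 2 neighbouring members within each thymus library, 1 panel per pair, with the strain on the x axis and the axes starting at 0; filled circles are untreated and open triangles injected mice. Cd8b1 to Cd8a was 1.21 and 1.38 in B6 against 0.582 and 0.775 in MSM, and Rag1 to Rag2 was 13.7 and 12.3 against 7.92 and 8.07.

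In the CD3 complex and the signalling proteins next to it, the strains overlapped for 7 of the 8 genes. Over all genes tested, 22.3% had both MSM thymi below both B6 thymi, 23.1% had them above, and the rest overlapped. Of the CD3 chains, Cd3d ranged from 76.3 to 110.1 FPKM over the 4 thymi, Cd3e from 55.1 to 92.3 and Cd3g from 165.3 to 276.4, and in each of these the strains overlapped. In all 3 the lowest library was the untreated MSM thymus, and for Cd3d and Cd3g the highest was the injected MSM thymus. Cd247, which encodes the zeta chain, had 89.6 FPKM in the untreated B6, 95.3 in the untreated MSM, 90.4 in the injected B6 and 146.2 in the injected MSM thymus, so both MSM values were above both B6 values, by little in the untreated pair. Its fitted difference was 0.39 ± 0.26 (limma adjusted p = 0.595). The table's Cd247 locus also spans Pou2f1 on the other strand, and the sources used here do not say whether strand was used in counting.

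Lck, the kinase that starts receptor signalling, had 235.6, 210.9, 268.9 and 285.6 FPKM, with the untreated B6 and MSM thymus first and the injected B6 and MSM thymus after them. Zap70, the kinase recruited to the phosphorylated CD3 chains, ranged from 20.6 to 28.1 FPKM, the adaptor Lat from 159.3 to 242.2 and Themis, needed for positive selection, from 140.3 to 192.3. The strains overlapped in all 4 of these genes, and their median difference was -0.17 in the untreated and 0.23 in the injected pair. For Lck the fitted difference was -0.04 ± 0.27 (limma adjusted p = 0.974).

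Of the 8 lineage commitment factors, Satb1, Bcl11b, Tcf12 and Ets1 had both MSM thymi below both B6 thymi. Over all genes tested this held for 22.3%. Tcf7, Lef1, Gata3 and Tox overlapped. Satb1, a chromatin organiser of thymocytes, had 181.9 FPKM in the untreated B6, 108.6 in the untreated MSM, 225.0 in the injected B6 and 154.6 in the injected MSM thymus, a difference of -0.64 ± 0.25 (limma adjusted p = 0.370). Bcl11b, which fixes the T lineage, had 47.4, 37.2, 48.3 and 40.1 FPKM. Ets1 had 148.4, 110.8, 164.2 and 143.5 FPKM, and Tcf12, the E protein HEB, ranged from 47.0 to 59.3. For Bcl11b, Ets1 and Tcf12 the strain gap was at most 1.34-fold in any pair.

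Tcf7, the factor TCF-1 that acts downstream of Notch, had 214.9 FPKM in the untreated B6, 237.1 in the untreated MSM, 302.8 in the injected B6 and 390.6 in the injected MSM thymus. It was thus higher in MSM within each treatment and higher in the injected thymus within each strain. Lef1, its relative, had 27.3, 29.4, 50.4 and 32.3 FPKM, with the injected B6 thymus alone high. Tox varied least of the lineage factors, from 13.7 to 16.7 FPKM, and Gata3 ranged from 5.58 to 7.97 FPKM.

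The factors that decide between the CD4 and CD8 lineages separated the strains in opposite directions. Zbtb7b (ThPOK), which directs cells to the CD4 lineage, had 3.41 FPKM in the untreated B6, 6.19 in the untreated MSM, 2.80 in the injected B6 and 5.24 in the injected MSM thymus. Runx3, which directs cells to the CD8 lineage and represses Cd4, had 2.83, 0.96, 4.02 and 2.35 FPKM. Both MSM thymi were thus above both B6 thymi for Zbtb7b and below them for Runx3. The fitted differences were 0.71 ± 0.28 for Zbtb7b (limma adjusted p = 0.378) and -0.78 ± 0.37 for Runx3 (adjusted p = 0.451), and neither passed. Runx3 rested on about 9.1 fragments in the untreated MSM thymus (95% Poisson interval 0.441 to 1.82 FPKM). Runx1, active from the earliest stages on, had 14.2, 10.01, 15.01 and 11.7 FPKM, with both MSM values the lower ones. Zbtb7b was higher in liver than in thymus, and hepatocyte markers were high in the untreated MSM thymus. Those markers summed to 136.9 FPKM in the injected B6 and 298.9 in the injected MSM thymus, where the Zbtb7b difference was 0.71, and it was also 0.71 in the untreated pair. The part of liver RNA in the Zbtb7b values was not tested.

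The Ikaros family members Ikzf1 and Ikzf3 differed in direction. Ikzf3, Aiolos, had 35.2 FPKM in the untreated B6, 21.8 in the untreated MSM, 35.7 in the injected B6 and 23.1 in the injected MSM thymus. These 4 values formed 2 pairs by strain with little difference between treatments, and the fitted difference was -0.64 ± 0.22 (limma adjusted p = 0.316). Ikzf1, Ikaros itself, had 67.5, 71.8, 78.4 and 101.5 FPKM and overlapped between the strains.

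In the Notch pathway, Notch1, Notch3 and Dtx1 had both MSM thymi below both B6 thymi, and the target gene Hes1 had them above. Over all genes tested the shares were 22.3% below and 23.1% above. Notch1, the receptor that drives T lineage choice, had 14.1, 13.8, 18.5 and 11.4 FPKM, listed as untreated B6 and MSM, then injected B6 and MSM, so the untreated pair was nearly equal. Notch3, a receptor raised by pre-receptor signals, had 3.11, 2.01, 5.74 and 2.44 FPKM, with the injected B6 thymus the highest. Dtx1, a Notch target and ubiquitin ligase, ranged from 1.71 to 2.62 FPKM, at an estimated 16.9 to 31.8 fragments per library. Hes1, a repressor induced by Notch, had 3.48, 5.11, 2.61 and 4.11 FPKM, at an estimated 15.6, 18.3, 11.6 and 16.8 fragments. The 95% Poisson intervals of Hes1 overlapped between the strains in both treatments. They were 1.97 to 5.695 (B6) and 3.04 to 8.04 FPKM (MSM) untreated, and 1.33 to 4.61 and 2.39 to 6.595 FPKM injected. The fitted differences were -0.71 ± 0.34 for Notch3 (limma adjusted p = 0.449) and 0.47 ± 0.30 for Hes1 (adjusted p = 0.564).

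Among the adhesion and co-stimulatory receptors, Cd28 had the smallest p of all members in the strain comparison. Cd28, the co-stimulatory receptor for CD80 and CD86 (chromosome 1, 60716800 to 60773359), had 50.9 FPKM in the untreated B6, 19.6 in the untreated MSM, 47.1 in the injected B6 and 26.8 in the injected MSM thymus. Both MSM thymi were far below both B6 thymi, by 2.60-fold in the untreated and 1.76-fold in the injected pair. The fitted difference was -1.06 ± 0.25 (limma adjusted p = 0.158), and over 13 alternative settings its adjusted p ran from 0.0557 to 0.892 with no change of sign. Cd2, an adhesion receptor for CD48, had 49.0, 30.5, 38.7 and 50.8 FPKM, with the 2 MSM thymi at both ends. Cd5 ranged from 29.2 to 38.3 FPKM and Cd6 from 26.7 to 47.1, the latter highest in the injected MSM thymus.

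Genes of late maturation, egress and activation were at low levels, and the untreated MSM thymus was the highest of the 4 for S1pr1 and Klf2. S1pr1, the receptor that guides mature cells out toward sphingosine 1-phosphate in blood, had 5.23 FPKM in the untreated B6, 10.2 in the untreated MSM, 3.78 in the injected B6 and 6.13 in the injected MSM thymus. Klf2, which turns S1pr1 on, had 1.44, 5.92, 3.31 and 2.58 FPKM, so the order of the strains turned around between the treatments. These values rested on an estimated 8.1, 26.7, 18.4 and 13.3 fragments. The 95% Poisson intervals of the injected pair overlapped, at 1.97 to 5.20 (B6) and 1.39 to 4.39 FPKM (MSM). Those of the untreated pair did not, at 0.624 to 2.82 and 3.89 to 8.64 FPKM. As a sum, 7 B cell markers were also highest in the untreated MSM thymus, at 19.3, 42.02, 14.8 and 2.80 FPKM in the same order. In the injected pair this sum was lower in MSM, where S1pr1 was higher and Klf2 lower. Not every marker rose, as Cd79b had 9.61 FPKM in the untreated B6 and 9.25 in the untreated MSM thymus. The defining marker Ms4a1 was at 13.8 FPKM there and listed at 0 in the injected MSM thymus. The part of B cells, and of liver RNA, in the S1pr1 and Klf2 values was not tested. The fitted strain difference was 0.71 ± 0.26 for S1pr1 (limma adjusted p = 0.348) and 0.62 ± 0.48 for Klf2 (adjusted p = 0.644).

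Il7r, the receptor for a survival cytokine, had 7.23, 7.06, 11.3 and 7.79 FPKM, with the injected B6 thymus alone higher. Cd69, a mark of recent receptor signals that holds cells in the thymus, had 17.0, 13.7, 11.3 and 24.4 FPKM. It was lowest in the injected B6 and highest in the injected MSM thymus, so the strain order differed between treatments here as well. Nr4a1, an immediate target of receptor signals, ranged from 6.91 to 8.88 FPKM. Foxp3, the factor of regulatory T cells, ranged from 0.46 to 0.915 FPKM, at an estimated 4.9 to 10.7 fragments per library. It did not pass the filter on low values, and its locus in the tables overlaps Ppp1r3f and Ccdc22, so no difference is given for it.

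A shift of all members together could come with the share of T cell RNA in a library, which was not measured. Each member was therefore also set against the median of the 41. Taking off a median does not correct for members that other cells also express, such as S1pr1 and Zbtb7b. After this subtraction the members farthest below the rest in both pairs were Cd28 (-1.06 untreated, -0.68 injected), Ptcra (-0.67 and -0.70), Rag1 (-1.28 and -0.57), Runx3 (-0.69 and -0.48) and Cd8b1 (-1.05 and -0.46). Those farthest above were Zbtb7b (0.98 and 0.82), S1pr1 (1.12 and 0.69), Hes1 (0.72 and 0.61) and Tcf7 (0.42 and 0.47). These are log2 differences without a test, and their order describes these 4 libraries. Ptcra, Runx3 and Hes1 rest on the low fragment counts given above.

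The authors' deposited intervals for the FPKM are wider than any of these gaps. The lower bound was 0 for every member in every library, and the upper bound was 2.14 to 5.16 times the FPKM in thymus. The intervals of the 4 thymus libraries therefore overlap for every member.

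A wider list of 56 other T cell development genes (receptor signalling parts, stage markers, chemokine receptors, survival genes) was read in the same fit. Of the 55 tested, 0 were higher and 2 were lower in MSM, and the list's median difference was -0.03, beside 0.03 over all genes. Endou, an RNA endonuclease gene known as a thymocyte transcript, had 85.1 FPKM in the untreated B6, 9.002 in the untreated MSM, 77.3 in the injected B6 and 6.99 in the injected MSM thymus. Its fitted difference was -3.20 ± 0.22 (limma adjusted p = 0.00258). Cd96, a receptor of T and natural killer cells, had 32.2 and 24.3 FPKM in the B6 thymi, was listed at 0 in the untreated MSM thymus and stood at 2.11 FPKM in the injected one, for a difference of -4.04 ± 0.48 on the log2(FPKM + 1) scale (adjusted p = 0.0223). The next largest differences, Cd44 (1.73 ± 0.29, adjusted p = 0.0693) and Cd1d1 (-1.61 ± 0.34, adjusted p = 0.125), did not pass. No core member of the 42 had a difference of the size of Endou or Cd96. Endou passed in 11 of 13 alternatives and Cd96 in 5 of 13.

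The change with MegaFasL was described without a test, because each treatment has its own separately normalized table and 1 library per strain. After centring the 4 thymi by their median ratio, the injected thymus was higher by 2-fold or more in both strains for 0.276% of the 11610 genes, and lower for 0.422%. Of the 41 members, 0 were higher and 0 lower by this rule. In B6 no member reached 2-fold, and in MSM 1 did, Klf2, with -1.01 in MSM and 0.79 in B6 (log2, injected minus untreated). In MSM, Klf2 rested on an estimated 26.7 (untreated) and 13.3 (injected) fragments. The 95% Poisson intervals of these values overlapped (3.89 to 8.64 and 1.39 to 4.39 FPKM). The median change of the members was 0.05 in B6 and 0.36 in MSM, beside -0.01 and 0.00 over all genes. In B6 22 members and in MSM 33 members were higher in the injected thymus, 18 of them in both strains, and 3 were lower in both. Such signs were not counted over all genes, so these counts describe the members only.

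The MSM change is the injected minus the untreated MSM thymus. The untreated one held the foreign tissue RNA and the lowest share of member RNA. The part of either library in the MSM median was not tested. Both B6 thymi held less of the foreign tissue RNA, with hepatocyte markers summing to 82.7 FPKM (untreated mouse) and 136.9 FPKM (injected mouse), and airway, fat and muscle markers to 204.5 and 193.9 FPKM. In B6, Rag1 differed by -0.30, Dntt by -0.23, Cd4 by 0.08, Cd8a by -0.06 and Cd8b1 by 0.13 in these units. In MSM the same genes had 0.54, 0.32, 0.48, 0.43 and 0.84. The recombination genes Rag1, Rag2 and Dntt were thus lower in the injected B6 and higher in the injected MSM thymus than in the untreated thymus of the strain. The members with the largest values in B6 were Lef1 (0.82), Klf2 (0.79) and Notch3 (0.68), and Cd69 had the lowest (-0.59). S1pr1 (-0.42 in B6, -0.71 in MSM), Hes1 (-0.34 and -0.32) and Zbtb7b (-0.24 and -0.27) were the 3 members lower in both strains.

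**Figure D4:**
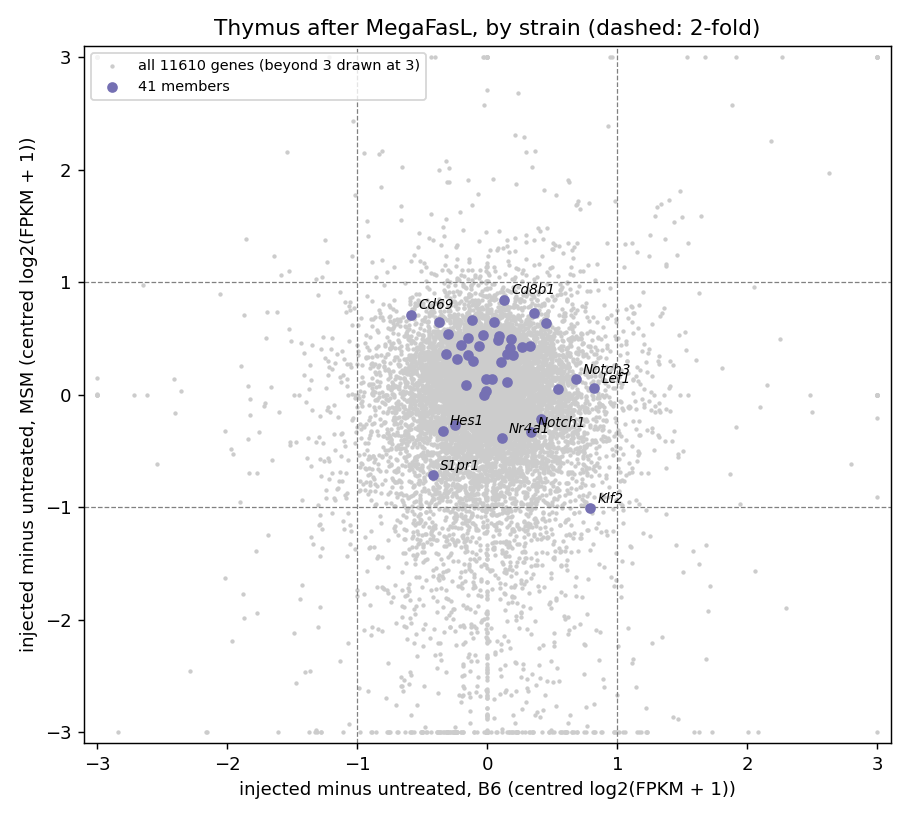
Log2 change from untreated to injected thymus in B6 (x axis) and MSM (y axis) after median centring, with the 41 members in purple over all 11610 genes in grey; dashed lines mark 2-fold and grey points beyond 3 are drawn at 3. No member lies past 2-fold in both strains, and the members' median is 0.05 in B6 and 0.36 in MSM.

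In liver, most of the same genes were at a small part of their thymus level. Liver minus thymus was fitted with limma over all 8 libraries with mouse as a term. Of 12880 genes tested, 28.6% were higher in liver and 32.1% higher in thymus. Of the 41 members tested, 37 were higher in thymus, 2 were higher in liver (S1pr1 and Zbtb7b) and 2 did not pass (Hes1 and Klf2). A gene was tested if its mean reached 1 FPKM in either tissue, and only 20 members reached it in liver. The others entered the fit through the thymus, where they are high. The list was also chosen as thymus genes, so the 37 is a description only. The members' median was -4.76, beside -0.13 over all genes.

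Cd8a had 3.55, 0.598, 0 (listed at 0) and 0.219 FPKM in the livers of the untreated B6 and MSM and the injected B6 and MSM mice, and Rag1 had 9.88, 0.714, 0.601 and 0.787. For Rag1 the liver minus thymus difference was -7.08 ± 0.40 (limma adjusted p = 7.88e-05), and for Cd8a it was -6.97 ± 0.39 (adjusted p = 7.88e-05). The untreated B6 liver was the highest of the 4 livers for both genes. As a share of the thymus of the same mouse, the median over 13 thymocyte markers was 1.69% in the untreated B6, 0.419% in the injected B6, 0.332% in the untreated MSM and 0.0854% in the injected MSM mouse. The 13 were Rag1, Rag2, Dntt, Ptcra, Cd4, Cd8a, Cd8b1, Cd3d, Cd3e, Cd3g, Lck, Themis and Bcl11b. Of these, 1, 3, 4 and 6 were listed at 0 in the livers in that order. Cd8a rested on an estimated 16.0, 0, 2.9 and 0.9 liver fragments. The medians after the first are thus near the floor. Of the 42 members, 5 were listed at 0 in the untreated B6 liver, 11 in the injected B6, 16 in the untreated MSM and 15 in the injected MSM liver. Whether the untreated B6 liver held more T cells or RNA from thymus was not tested.

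S1pr1, also expressed by blood vessel endothelium, had 43.3, 28.4, 18.5 and 9.22 FPKM in the livers in the same order. These values were 150.5% to 827.2% of those of the thymus of the same mouse, and the difference was 1.69 ± 0.38 (limma adjusted p = 0.00932). Zbtb7b, which also has a role outside T cells, had 20.6, 16.2, 15.3 and 15.5 FPKM in liver, a difference of 1.76 ± 0.24 (adjusted p = 0.00133). Rescaled to a common sum over all genes, S1pr1 did not pass (0.75, adjusted p = 0.143). Hes1 had 7.31, 4.16, 12.9 and 7.13 FPKM in liver and was above its thymus level in 3 of the 4 mice. Klf2 had 1.13, 1.07, 2.75 and 0.788 FPKM. Tox, Notch1, Zap70, Tcf12 and Ets1 kept between 4.58% and 31.6% of their thymus level in liver.

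**Figure D5:**
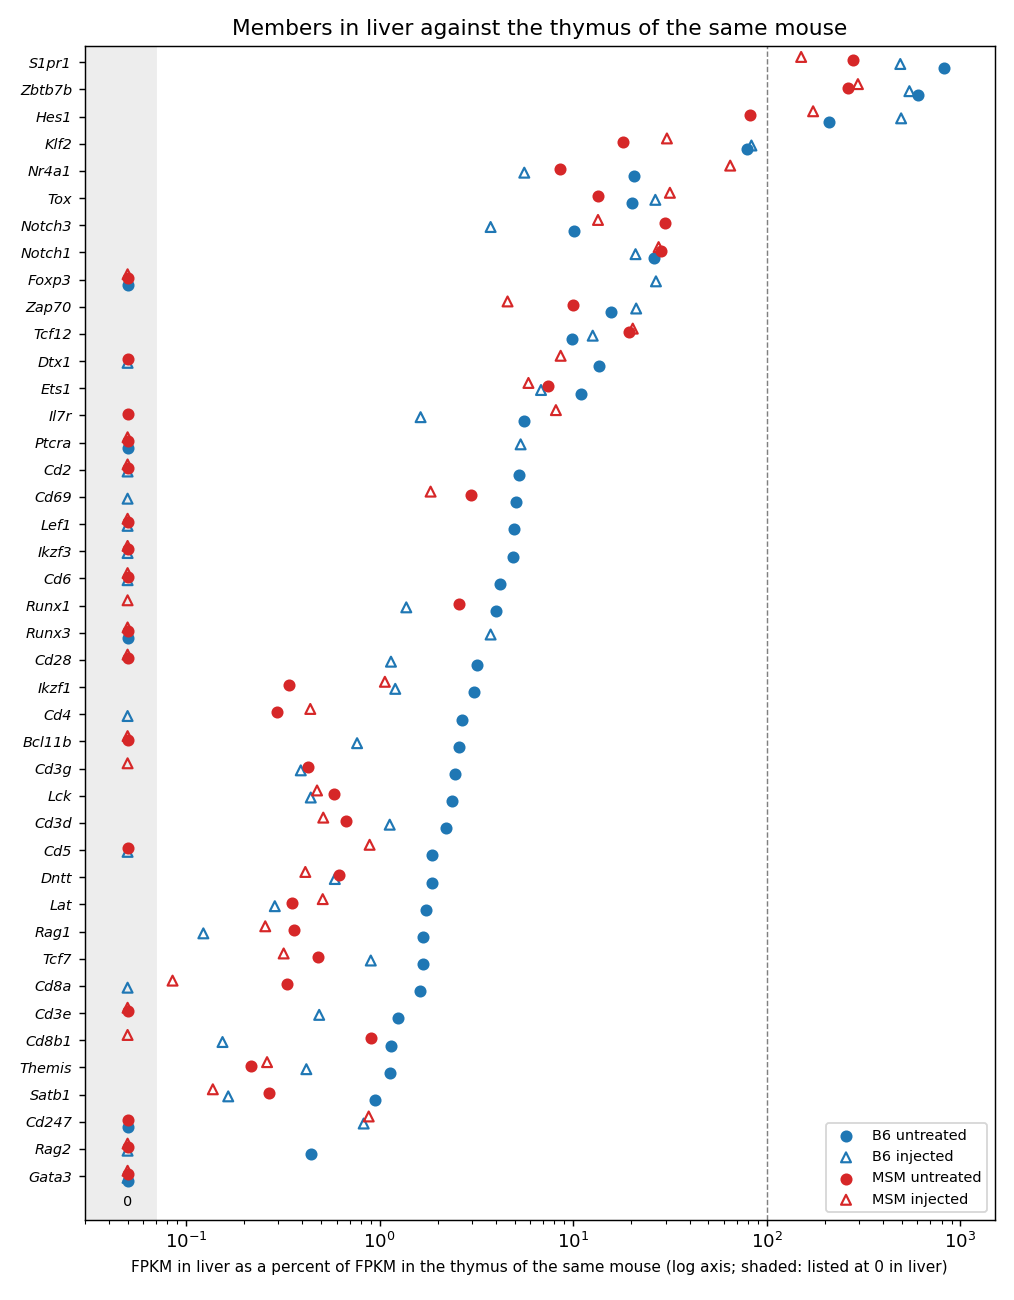
FPKM in liver as a percent of the FPKM in the thymus of the same mouse, for all 42 members, on a log axis; colour gives the strain, circles untreated and triangles injected mice, the shaded band holds values listed at 0 in liver, and the dashed line marks equal levels. S1pr1 and Zbtb7b lie above 100% in all 4 mice and Hes1 in 3, and most others are under 10%.

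In the liver, limma tested 10971 genes between the strains, and 0.51% passed with a higher and 0.957% with a lower level in MSM. Only 20 members passed the filter of a mean of 1 FPKM, of which 0 passed the test in either direction, and 3 had an unadjusted p under 0.05, beside 1774 of all genes. S1pr1 had the smallest p, with -0.76 ± 0.24 (adjusted p = 0.249). From the wider list, Cd1d1, which presents lipids to natural killer T cells, was lower in the MSM livers, at 32.4 and 54.6 FPKM against 135.0 and 163.9 in B6 (-1.80 ± 0.22, adjusted p = 0.0444). It passed in 5 of 13 alternatives. With the injection, 1.64% of liver genes were higher by 2-fold or more in B6 and MSM alike, and 1.24% were lower. S1pr1 was the 1 member among the lower ones, with -1.24 in B6 and -1.55 in MSM.

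Whether the strain difference was unequal in the tissues was tested on the liver minus thymus ratio of the 4 mice. By limma, 0.109% of 12880 genes passed with a higher and 0.256% with a lower ratio in MSM. Of the 41 members 0 passed in either direction, and 4 had an unadjusted p under 0.05, beside 1626 of all genes. These 4 were Cd3g (-1.48 ± 0.35, adjusted p = 0.212), S1pr1, Tcf7 and Hes1. Cd3g had 4.45, 0.704, 0.677 and 0 (listed at 0) FPKM in liver, untreated B6 and MSM first, then injected B6 and MSM. These liver values rest on an estimated 6.5, 1.1, 1.1 and 0 fragments.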

How the data were processed

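RNA of thymus and liver was measured in 8 libraries, 1 per group. Reads were aligned with TopHat to mm10 and levels computed with Cuffdiff 2.2.1, per the submitters' processing notes; the sources used here do not give the gene annotation. The authors deposited FPKM with interval bounds for 23284 genes in 2 tables, untreated and injected, each normalized separately. MSM reads were aligned to a reference built from B6. Members were matched by symbol and placed on GENCODE M21, and all 42 positions overlapped the table's locus. The members, the wider list and the marker lists were chosen with earlier results of these data known.

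The tests were run with limma 3.58.1 (mean trend, R 4.3.3), two-sided, on log2(FPKM + 1), over genes whose mean reached 1 FPKM, with Benjamini-Hochberg adjustment over all genes tested and a threshold of 0.05. For liver minus thymus and for the ratio fit, the mean had to reach 1 FPKM in either tissue. A difference on this scale understates the change of low genes. The strain fits had treatment as a term, and liver minus thymus had the mouse. Nothing in the labels gives a second mouse per group, so p-values rest on the variation of a difference across treatments or mice. In limma this variation is moderated toward a trend estimated over all genes. The code was tested on simulated data. Fragments per FPKM were estimated from genes whose deposited upper bound marks 1 fragment, and intervals are 95% Poisson intervals that cover counting error only. Any member could be named. From the wider list the genes past the threshold in a strain fit, or else the 4 largest differences in thymus, could be named, and at most 3 genes of each marker list by level in thymus; Ms4a1 is among these. Alternatives were other added values (0.1 and 5 FPKM), filters (none and 5 FPKM), scalings, limma without trend, other model terms and each library or mouse left out. The alternatives for strains that do not overlap were chosen after seeing the data.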

Additional observations from a re-analysis of the deposited data

Results flagged for a closer look

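Among the members whose mean reached 1 FPKM in both tissues, 4 had MSM above B6 within both treatments in one tissue and below it within both treatments in the other. The strain difference of the liver minus thymus ratio was fitted with limma on the 4 mice to test whether the tissues differed. S1pr1 was higher in MSM in thymus (0.71) and lower in liver (-0.76), and its ratio differed by -1.47 ± 0.36 (adjusted p = 0.220). Hes1 likewise had 0.47 in thymus and -0.73 in liver, with a ratio difference of -1.20 ± 0.39 (adjusted p = 0.316). Tcf7 had 0.25 in thymus and -0.92 in liver, with a ratio difference of -1.17 ± 0.35 (adjusted p = 0.288), at liver levels of 1.14 to 3.59 FPKM. Tcf12 went the other way, with -0.19 in thymus and 0.57 in liver, and a ratio difference of 0.75 ± 0.35 (adjusted p = 0.464). None of the 4 differences passed, and their signs are fixed by how these genes were chosen.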

How the results depend on the processing

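Across the alternatives, 0 members passed in the strain fits of thymus and liver and in the ratio fit, as reported. The number of all genes called moved more. In thymus it was 113, and 300 with 0.1 FPKM added, 62 without a filter, 184 with a filter of 5 FPKM, 61 centred, 45 rescaled to a common sum (TPM), 44 without trend, 44 with all 8 libraries in 1 fit, and 10 to 301 leaving out 1 library; without the untreated MSM thymus it was 113. In liver it was 161, and 336 as TPM, 37 without trend and 0 to 0 leaving out 1 library, where 821 to 1229 genes had an unadjusted p under 0.05. In the ratio fit it was 47, and 5 and 132 with 0.1 and 5 FPKM added, 15 without a filter, 15 at 5 FPKM, 27 centred, 8 as TPM, 26 without trend and 0 to 51 leaving out 1 mouse. Of the wider list in thymus, 1 gene was higher with 0.1 FPKM added and 1 at a filter of 5 FPKM; 1 was lower without a filter, centred, as TPM, without trend, without the treatment term and in 1 fit of all libraries, and 0 to 3 leaving out 1 library. In liver 2 were lower with 0.1 FPKM added, without a filter, at 5 FPKM and as TPM, 0 with 5 FPKM added, without trend and without the treatment term, and 0 to 0 leaving out 1 library. The members' median strain difference in thymus was -0.272 to -0.061 leaving out 1 library, lowest without the injected MSM thymus. Members with MSM below both B6 libraries numbered 17 to 27 leaving out 1 library (31.1% to 39.8% of all genes), highest without the injected MSM thymus, and those above 6 to 18 (33.9% to 41.8% of all genes), with 18 without the untreated MSM and 11 without the injected B6 thymus; the shares of all genes were 22.3% and 23.1% with all 4 libraries, so fewer libraries raise them for genes in general. Liver minus thymus had a members' median of -6.70 and -2.87 with 0.1 and 5 FPKM added and -6.15 as TPM, where the median of all genes moved to -1.04; as TPM 1 member was higher in liver. Without the replicate block (no mouse term), 3 members were higher in liver, Hes1 among them, and 37 in thymus; 3 were also higher without the untreated MSM mouse. Genes at least 2-fold changed after injection numbered 81 in thymus, and 297 as TPM, 230 and 25 with 0.1 and 5 FPKM added and 39 at 5 FPKM; in liver they numbered 316, and 554, 107 and 197 with 0.1 and 5 FPKM added and at 5 FPKM. In liver 3 members were lower after injection as TPM and 4 with 0.1 FPKM added. The causes were not tested. Of 1783 single gene values, 19 lost and 7 gained the threshold, and 0 changed sign where the main or the alternative fit passed. Signs did change where neither passed, as for Hes1 in liver minus thymus (0.816 in the main fit, -0.088 at its lowest).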

Other observations

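Some pairs of members outside the neighbouring ones also had ratios that separated the strains in thymus; they were chosen after their values were seen and carry no test. The Ikzf1 to Ikzf3 ratio was 1.92 in the untreated B6, 3.29 in the untreated MSM, 2.197 in the injected B6 and 4.40 in the injected MSM thymus. The Cd247 to Cd3e ratio was 1.14, 1.73, 0.98 and 1.77 in the same order, and the Cd4 to Cd8a ratio was 0.503, 0.375, 0.557 and 0.390. Cell cycle markers, 18 genes including Pcna, Top2a and Mki67, summed to 900.9, 905.5, 946.8 and 1175 FPKM in these thymi, highest in the injected MSM library, in which 15 of the 42 members (36.6% of the 41 with a mean of 1 FPKM or more, beside 30.6% of all such genes) had their highest value. Thymic epithelial markers, 11 genes including Ccl25 and Prss16, summed to 791.4, 539.7, 853.9 and 810.3 FPKM, lowest in the untreated MSM thymus.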
